A study of Mus musculus with 2 samples.

Results

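Keratin genes were followed in single-cell RNA libraries of mouse skin wounds. The members were all rows of the count tables whose symbol is Krt followed directly by a digit, which gave 53 of 31053 rows, so that the keratin-associated proteins of hair were not among them. Of these 53 genes, 48 had at least 1 UMI (unique molecular identifier, the tag that counts an RNA molecule once) in the cells used, and 25 had 50 or more over both libraries and are described with values. The remaining 28 had between 0 and 48 UMIs.

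Keratins are the intermediate filament proteins of epithelial cells. A filament is built from pairs of a type I and a type II keratin, and the pair in use depends on the layer: Krt5 and Krt14 in the basal layer of the epidermis, Krt1 and Krt10 in the layers above it. Near a wound, keratinocytes switch on Krt6a, Krt6b, Krt16 and Krt17, which are also used in hair follicles.

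Wound tissue of the back skin was taken with a 10 mm punch on day 5 after wounding. The methods of the study describe wounds narrower than this punch, so that skin around the wound could be taken along. Its share was not measured. Live cells, which exclude the dye 7AAD, were sorted and captured in droplets (10x Genomics, 3′ v3). Both libraries are labelled as C57BL/6 mice aged 7 to 9 weeks with the genotype Mrc1-DTR, 1 given PBS (PBS library) and 1 given diphtheria toxin (DTX library), and the methods of the study describe male mice, 3 pooled per library. In this transgene the Mrc1 promoter drives the receptor for diphtheria toxin, and the toxin kills cells in which that promoter is active, among them CD206-positive macrophages. The methods describe the control mice as wild-type mice that also received the toxin, which goes against the label of the PBS library, and it could not be told which is right. With 1 library per condition there was no test, and differences between mice, between captures and between conditions cannot be told apart.

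The PBS library held 12058 barcodes with 105511870 UMIs and the DTX library 11031 with 81858751. Barcodes were kept from 500 genes upwards if mitochondrial genes gave no more than 6% of their UMIs, putative doublets were removed, and 7944 and 6613 cells remained, with medians of 9579.5 and 7286 UMIs. Macrophage-like cells were 21.3% of the kept cells of PBS and 67.0% of those of DTX. The libraries shared 37 barcodes, 13 of them among the kept cells. Cells were clustered and classes named from marker genes with no keratin among them. Both epithelial-like clusters had raised levels of all 12 epithelial markers, among them Epcam and Trp63. Levels are given in CPM, the UMIs of a gene summed over the cells of a group and scaled to the total UMIs of that group, and all intervals are exact 95% intervals that cover counting error only. Since the tag sits at the 3′ end of an RNA, its count does not grow with the length of the RNA, and levels of different keratins are set side by side on this scale, though capture may differ between genes.

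The keratin rows lie in a pair of clusters in the mm10 genome. Chromosome 11 holds 27 of them, all type I, between positions 99232761 and 100269871. Chromosome 15 holds 26, of which 25 are type II, between 101347444 and 102032027, and the exception is the type I gene Krt18 at its end. None of the 25 named genes overlapped another gene on its strand. Near-identical copies can split reads, so all stretches of 91 bases in the last 500 bases of each transcript were compared, and Krt16 alone shared any, namely 17 of 410 (4.15%) with the row Gm11597. Krt6a and Krt6b, which are close copies of each other, shared none.

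The 250 bases before the gene start are shown for 4 keratins whose levels set the cell states apart, a basal, a pair of suprabasal and a follicle member. For Krt14 the start in the table lay inside the gene as annotated for the counts, so its stretch is not shown. They were taken from RefSeq tables on build GRCm38.p6, all lie on the minus strand and are written 5′ to 3′ along the gene, with capitals for TATAA, the core of a TATA box, and for CACCC, the core of the sites bound by Klf factors. Both motifs were searched on both strands (TTATA and GGGTG on the other). A TATAA match can overlap its reverse form, while TATAA and CACCC cannot overlap each other.
Krt5 (chr15:101712906-101713155): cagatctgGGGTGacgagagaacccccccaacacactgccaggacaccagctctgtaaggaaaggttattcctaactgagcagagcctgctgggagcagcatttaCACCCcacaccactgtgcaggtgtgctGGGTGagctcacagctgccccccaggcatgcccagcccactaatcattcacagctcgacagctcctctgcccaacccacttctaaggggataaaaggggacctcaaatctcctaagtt
Krt10 (chr11:99389365-99389614): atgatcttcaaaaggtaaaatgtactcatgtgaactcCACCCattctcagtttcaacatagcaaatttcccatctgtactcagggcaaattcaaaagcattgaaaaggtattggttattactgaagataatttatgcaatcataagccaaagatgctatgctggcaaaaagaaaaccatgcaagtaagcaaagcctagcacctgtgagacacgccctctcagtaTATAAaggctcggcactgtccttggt
Krt77 (chr15:101869706-101869955): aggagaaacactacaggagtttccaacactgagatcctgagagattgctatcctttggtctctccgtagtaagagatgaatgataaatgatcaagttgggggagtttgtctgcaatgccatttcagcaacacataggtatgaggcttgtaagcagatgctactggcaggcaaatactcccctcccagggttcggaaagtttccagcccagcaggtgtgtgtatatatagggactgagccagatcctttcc
Krt79 (chr15:101940325-101940574): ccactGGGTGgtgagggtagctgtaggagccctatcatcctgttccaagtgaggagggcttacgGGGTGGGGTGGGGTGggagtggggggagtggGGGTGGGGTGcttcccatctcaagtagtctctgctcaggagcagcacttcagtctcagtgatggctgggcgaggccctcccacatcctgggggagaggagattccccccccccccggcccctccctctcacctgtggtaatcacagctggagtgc
Krt10 held the only TATAA of these 4, starting 26 bases before the gene start. The motif CACCC occurred 6 times before Krt79, 3 times before Krt5 and once before Krt10, and before Krt77 neither motif was found. The table held 37 promoters of 36 keratin symbols, that of Krt14 included. TATAA was in 24 of the 37 (64.9%), against 22.8% of all 32851 promoters of the same length, and CACCC in 29 (78.4%), against 52.0%. A match is a description of the letters and not a site of binding.

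Keratin RNA was a large and similar part of the RNA of keratinocytes in both libraries. The epithelial-like cells numbered 2066 in the PBS library (26.0% of kept cells) and 235 in the DTX library (3.55%). Keratins took 2.79% of their UMIs in the PBS library (interval 2.78 to 2.79) and 3.05% in the DTX library (3.03 to 3.06). Per cell the share had a median of 2.46% and 2.77%, and the 10th and 90th percentiles were 1.39% and 4.14% in PBS and 1.48% and 4.95% in DTX, so that the spread between cells of 1 library was far wider than the difference between libraries. Of the keratin UMIs in kept cells, the epithelial-like cells held 97.9% in the PBS library and 95.3% in the DTX library. Left-out barcodes with at least 500 genes and over the mitochondrial limit held 217171 keratin UMIs in PBS and 142996 in DTX. All kept cells held 810634 and 124176. The limit on mitochondrial UMIs removed keratin-rich barcodes unevenly: of barcodes with at least 500 genes and over 1% keratin UMIs, 854 beside 2011 kept ones were over the limit in PBS (29.8%), but 414 beside 227 in DTX (64.6%). The part of this filter in the number of epithelial-like cells was not tested.

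Type I and type II keratins were not captured in equal amounts. There were 2.59 type I UMIs per type II UMI in the PBS library (2.58 to 2.61) and 2.09 in the DTX library (2.06 to 2.11). With at most 2000 genes per cell the order turned, to 1.89 and 2.04. The ratio differed more between the named states described below, from 1.71 in infundibulum-like to 4.598 in Col17a1 basal-like cells of the PBS library, and from 1.55 to 4.54 in the DTX library. An unnamed cluster led by Dcn had 3.51 in 51 PBS cells and 10.1 in 14 DTX cells. Krt14 led the PBS library with 23.8% of keratin UMIs, before Krt16 with 19.5% and Krt17 with 17.6%. In the DTX library Krt17 led with 28.6%, before Krt14 with 16.4% and Krt16 with 15.99%.

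To describe where each keratin was used, the epithelial-like cells were clustered again with all Krt rows left out, so that no keratin could define a state. A cluster of 711 PBS and 60 DTX cells was called spinous-like (6 of 9 spinous markers raised), and 1 of 505 and 84 cells infundibulum-like, after the upper part of the hair follicle (6 of 7 markers). The infundibulum-like cluster also raised 5 of 9 spinous and 4 of 9 granular markers, and finer clustering set apart a granular-like cluster (8 of 9 granular markers) that held 86 of its 505 PBS cells (17.0%) and 29 of its 84 DTX cells (34.5%). A further 296 PBS and 43 DTX cells of this state fell in a finer cluster that stayed unnamed. That cluster raised 3 of 7 infundibulum and 3 of 8 sebaceous markers. Only 123 and 12 cells fell in the finer infundibulum-like cluster (7 of 7 markers). In that finer clustering, 257 spinous-like cells of PBS and 17 of DTX fell in a cluster with 0 of 9 spinous markers raised. Of the 9 basal markers, that cluster raised Col17a1 alone. A pair of clusters was basal-like: 1 led by Igfbp3, Itga2 and Col17a1 with 426 and 16 cells (7 of 9 markers), and 1 led by Cxcl2, Arl4c and Cald1 with 277 and 40 cells (8 of 9 markers), here called Col17a1 basal-like and Cxcl2 basal-like. A cycling-like cluster had 70 and only 5 cells, and clusters led by Dcn, a fibroblast gene (51 and 14 cells), and by Lyz2, a macrophage gene (26 and 16), stayed unnamed. Spinous-like cells were 34.4% of the epithelial-like cells in PBS and 25.5% in DTX, infundibulum-like cells 24.4% and 35.7%, Col17a1 basal-like cells 20.6% and 6.81%, and Cxcl2 basal-like cells 13.4% and 17.0%. Each state had 1 library per condition, and finer clustering moved these shares, with 5.95% and 5.11% of cells still infundibulum-like.

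**Figure D1:**
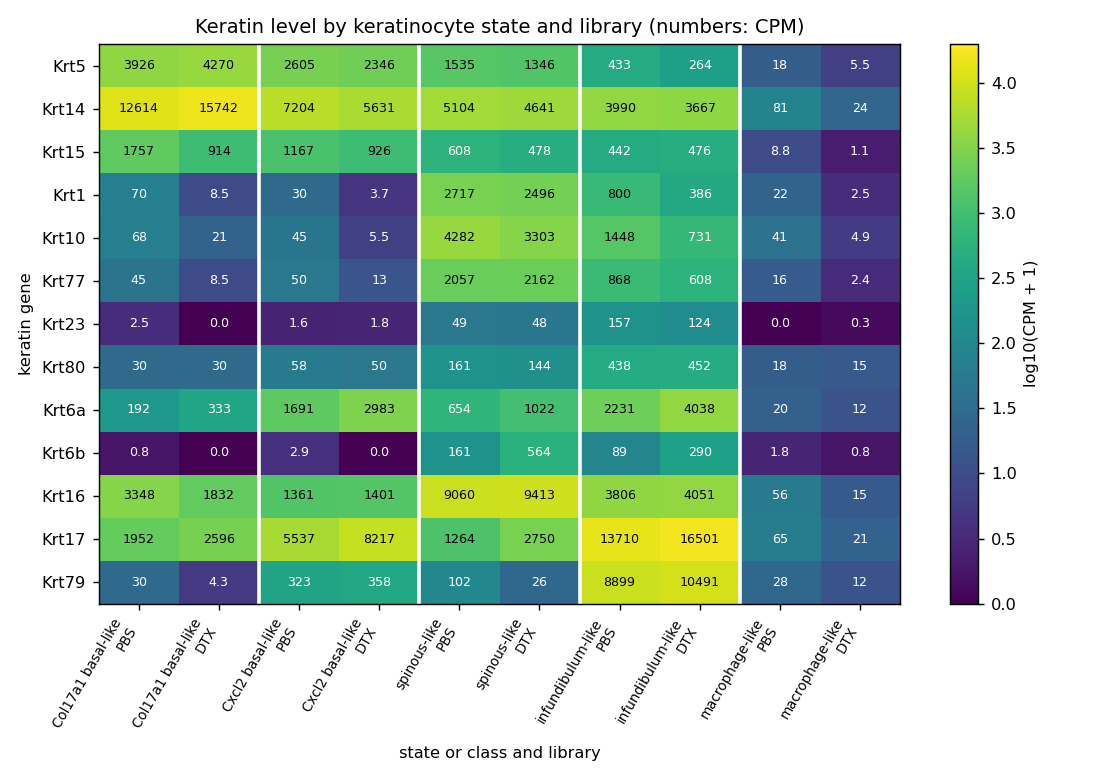
Level of the more abundant keratins (rows) in each keratinocyte state of each library and, at the right, in macrophage-like cells for comparison (x axis). Color shows log10 of CPM plus 1, and the CPM is printed in each field. Droplets of macrophage-like cells can hold free keratinocyte RNA, but how much of their level it made up was not tested. Krt14 was highest in Col17a1 basal-like cells (12614 CPM in PBS, 15742 in DTX), Krt16 in spinous-like and Krt17 and Krt79 in infundibulum-like cells of both libraries.

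Keratins of the basal layer were highest in basal-like cells, although the states had been built without them. Krt14 stood at 12614 CPM in Col17a1 basal-like cells of PBS and 15742 CPM of DTX, against 3990 and 3667 CPM in infundibulum-like cells. Its type II partner Krt5 stood at 3926 and 4270 CPM in Col17a1 basal-like and at 433 and 264 CPM in infundibulum-like cells. Both genes were thus lowest in the infundibulum-like state of each library and ordered the 4 states in the same way in both. Krt15, a basal keratin linked to follicle stem cells, had 1757 and 914 CPM in Col17a1 basal-like cells, 1167 and 926 CPM in Cxcl2 basal-like cells, and 608 and 478 CPM in spinous-like cells. Spinous-like cells as a group had 5104 and 4641 CPM of Krt14 and 1535 and 1346 CPM of Krt5. Which of their finer clusters held these UMIs was not measured.

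Keratins of the layers above the basal one were highest in spinous-like cells. Krt10 stood at 4282 CPM in spinous-like cells of PBS and 3303 CPM of DTX, and its partner Krt1 at 2717 and 2496 CPM. Krt77, a type II keratin found in sweat ducts and epidermis, followed both with 2057 and 2162 CPM. In infundibulum-like cells the values were 1448 and 731 CPM for Krt10, 800 and 386 CPM for Krt1, and 868 and 608 CPM for Krt77. Relative to all other epithelial-like cells of their library, spinous-like cells had log2 ratios of 2.56 in PBS and 2.55 in DTX for Krt10, 2.82 and 3.04 for Krt1, and 2.25 and 2.50 for Krt77. These 3 ratios were thus of a like size in both libraries. Part of the infundibulum-like level was that of the granular-like cells within it, where Krt10 stood at 4269.9 and 1569 CPM, against 697 and 246 CPM in the rest of the state.

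In basal-like cells these genes were low, and their levels are set beside those of macrophage-like cells, whose droplets can hold free keratinocyte RNA. Krt10 stood at 67.7 CPM in Col17a1 basal-like and 45.3 CPM in Cxcl2 basal-like cells of PBS, and at 41.0 CPM in macrophage-like cells. In DTX the same 3 values were 21.3, 5.51 and 4.91 CPM, from 5, 3 and 150 UMIs. The Krt10 level in basal-like cells was thus far closer to that of macrophage-like cells than to that of spinous-like cells, and both were lower in DTX. How much of it was free RNA was not tested. Krt1 behaved likewise with 70.2 and 30.1 CPM in the basal-like states of PBS and 8.54 and 3.68 CPM in those of DTX.

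The other suprabasal members were rarer. Krt78 had 26.99 CPM in spinous-like cells of PBS and 14.4 CPM in those of DTX. Krt2, a keratin of the upper spinous and granular layers in some body sites, had 85 of its 98 epithelial UMIs in spinous-like cells of PBS and all 11 of DTX, though 8 of these 11 came from 1 cell. Krt23 and Krt80 were higher in infundibulum-like cells instead, with 157 and 124 CPM of Krt23 against 49.0 and 48.5 CPM in spinous-like cells, and 438 and 452 CPM of Krt80 against 161 and 144 CPM. Both libraries thus placed these genes in the same states. Krt80 was higher in the granular-like cells of that state (793 and 662 CPM) than in its other cells (343 and 329 CPM).

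The wound keratins did not share 1 pattern. Krt16 was highest in spinous-like cells with 9060 CPM in PBS and 9413 CPM in DTX, followed by infundibulum-like cells with 3806 and 4051 CPM, and lowest in Cxcl2 basal-like cells of the 4 states with 1361 and 1401 CPM. Krt17 was highest in infundibulum-like cells with 13710.1 and 16501 CPM. Spinous-like cells had 1264 and 2749.9 CPM, the lowest of the 4 states in PBS, whereas in DTX Col17a1 basal-like cells with 2596 CPM stood slightly below them. Krt6a, the type II partner of both, had 2231 and 4038 CPM in infundibulum-like, 1691 and 2983 CPM in Cxcl2 basal-like, 654 and 1022 CPM in spinous-like and 192 and 333 CPM in Col17a1 basal-like cells. Krt6a and Krt17 were thus both highest in infundibulum-like and next in Cxcl2 basal-like cells, in both libraries, and Krt16 was not.

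Krt6b had another distribution than its close copy Krt6a. It stood at 161 and 564 CPM in spinous-like and 89.4 and 289.8 CPM in infundibulum-like cells, and had 4 and 0 UMIs in Col17a1 basal-like and 9 and 0 UMIs in Cxcl2 basal-like cells. Few cells carried it: 143 of 2066 epithelial-like cells in PBS and 24 of 235 in DTX.

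Krt79, a keratin of the infundibulum and the ducts of sebaceous glands, was highest by far in infundibulum-like cells, with log2 ratios to all other epithelial-like cells of 5.67 in PBS and 4.29 in DTX. It stood at 8899 CPM in infundibulum-like cells of PBS and 10491 CPM of DTX, against 323 and 358 CPM in Cxcl2 basal-like, 102 and 26.0 CPM in spinous-like, and 29.6 and 4.27 CPM in Col17a1 basal-like cells. After each cell had been thinned to 2000 UMIs, 90.6% of 490 infundibulum-like cells of PBS and 92.6% of 81 of DTX had at least 1 Krt79 UMI, against 4.0% of 704 and 5.2% of 58 spinous-like cells. Before thinning the shares were 94.3% and 97.6% against 18.7% and 18.3%. Macrophage-like cells are not known to use Krt79 and had shares of 5.91% (PBS) and 2.38% (DTX) after thinning, and of 12.6% and 7.43% before, so that the thinned spinous-like shares lay near those of macrophage-like cells. Krt75, of the companion layer of the follicle, had 88 and 24 epithelial UMIs in all.

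Keratins of simple epithelia, the follicle root sheath and the hair shaft were rare in epithelial-like cells. Krt18 had 121 UMIs in PBS and 12 in DTX, its partner Krt8 had 20 and 3, Krt7 had 100 and 21, and Krt19 had 4 and 2. Krt8 and Krt18 shared 0 of 2032 thinned PBS cells (upper bound 0.181%) and 0 of 229 thinned DTX cells (upper bound 1.60%). Krt8 was found in only 5 and Krt18 in only 12 of these PBS cells, and in 0 and 1 of these DTX cells. Spread independently, the pair would share 0.00145% of the PBS cells, so a count of 0 cannot show whether both genes occur together. Of the inner root sheath keratins, Krt25 had 106 UMIs in 40 PBS cells and 2 in 2 DTX cells. Of the hair shaft keratins, Krt32 had 223 UMIs in 167 PBS cells and 34 in 15 DTX cells, 17 of them from 1 cell. Krt42, a mouse gene near Krt17, had 315 and 55 UMIs, of which 115 came from 1 PBS cell and 35 from 1 DTX cell, and Krt4, of the esophagus and other mucosae, had 39 and 2.

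Among the 28 other keratins, 13 belonged to the hair shaft (0 to 46 UMIs each), 6 to the inner root sheath (0 to 35), 5 to other epithelia or no group (1 to 26), 2 to the suprabasal group (1 to 48), 1 to simple epithelia (26), and Krt88 in no group had 4. No UMI was found in the kept cells for 5 genes, and a count of 0 allows up to 3 UMIs of a library. Krt20 and Krt36, named after their values had been seen, had 26 UMIs each and 0 in epithelial-like cells. Fibroblast-like cells of PBS held 17 of the Krt20 UMIs, in 15 cells, and 24 of the Krt36 UMIs, in 20 cells.

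In most cells 1 of 3 type I keratins gave more UMIs than any other keratin. Krt14 led in 42.9% of epithelial-like cells of PBS (40.7 to 45.1), Krt17 in 22.9% and Krt16 in 19.8%. In DTX, Krt17 led in 43.8% (37.4 to 50.4), Krt14 in 24.3% and Krt16 in 16.6%. Within a state the libraries were closer to each other. Krt14 led in 92.0% of Col17a1 basal-like cells of PBS and 93.8% of the 16 of DTX. Krt17 led in 62.4% and 66.7% of infundibulum-like cells and Krt79 in 15.8% and 16.7%, and Krt16 led in 52.3% and 56.7% of spinous-like cells. In the Cxcl2 basal-like state they were further apart, and Krt14 led in 59.2% of PBS cells and 37.5% of DTX cells (22.7 to 54.2), and Krt17 in 33.9% and 57.5% (40.9 to 73.0). In the small groups outside these 4 states, Krt14 led in 68.6% of the 70 cycling-like cells of PBS and 0 of the 5 of DTX, and in 47.1% of the 51 PBS and 14.3% of the 14 DTX cells of the cluster led by Dcn.

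**Figure D2:**
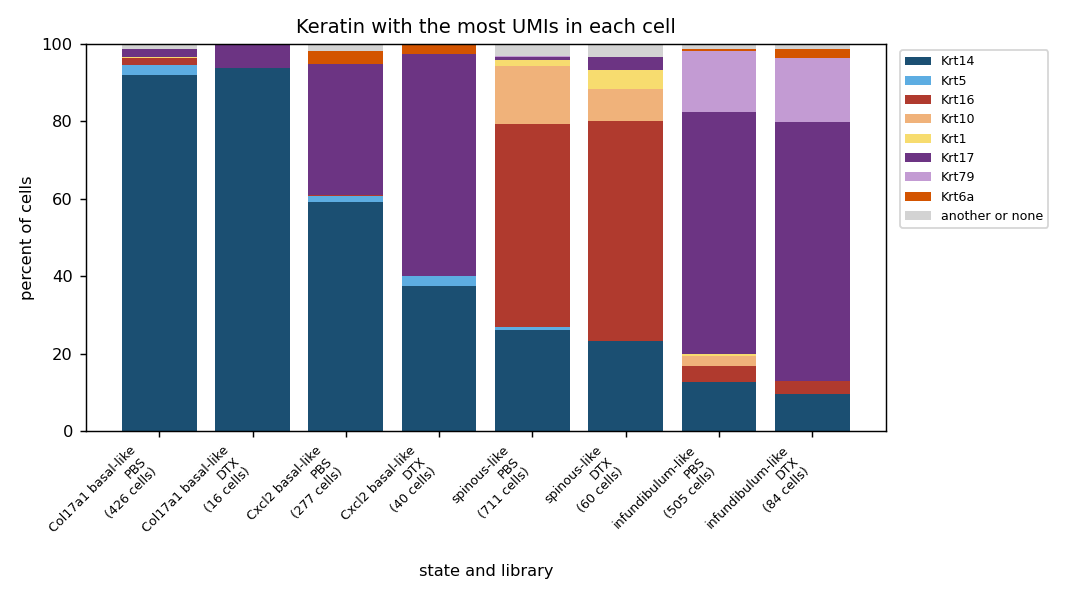
Percent of cells (y axis) of each keratinocyte state and library (x axis) in which a given keratin, shown by color, had more UMIs than any other. Krt14 led in 92.0% of PBS and 93.8% of DTX Col17a1 basal-like cells, whereas in Cxcl2 basal-like cells Krt14 and Krt17 traded places between the libraries.

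Pairs of keratins were then followed in the same cell, after thinning each cell to 2000 UMIs, which left 2032 PBS and 229 DTX cells. The basal pair Krt5 and Krt14 occurred together in 60.2% of PBS and 48.5% of DTX cells, against 49.2% and 36.7% if both had been spread independently, and of cells with Krt5, 96.9% and 94.1% also had Krt14. The suprabasal pair Krt1 and Krt10 occurred together in 28.6% and 20.1%, against 13.7% and 6.8% if independent. These 2 pairs were found in the same cells more often than their separate shares would give, in both libraries. For Krt6a and Krt16 this was not so in both, with 37.5% against 39.3% in PBS and 53.7% against 52.1% in DTX. Krt14 and Krt10, of different layers, shared 22.3% and 11.4% of cells, against 31.4% and 20.5% if independent. Of cells with Krt79, 95.9% and 99.0% also had Krt17, while Krt10 and Krt79 shared 8.9% and 7.4%, against 11.4% and 12.5%. For Krt16 and Krt17 the share of cells with both, 65.7% and 75.5%, was close to the 67.3% and 76.1% of independent genes. These are descriptions over cells of 1 library each. Free RNA can add UMIs to all of them, and its part was not tested.

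The libraries were then compared within epithelial-like cells, as the log2 ratio of DTX to PBS after adding 1 CPM to each level. A keratin was counted with at least 50 UMIs over both libraries and was called past the fold at an absolute log2 ratio of 1. Of 21 keratins counted, 2 were past it as higher in DTX, Krt6b and Krt6a, where 2.67% of all 10288 genes tested were, and 2 as lower, Krt25 and Krt78, where 2.07% were. The median over the 21 was -0.16, beside 0.08 over all genes, with 10 keratins above 0 and 11 below. Summed keratins had a log2 ratio of 0.13, with 0.03 for type I and 0.35 for type II.

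Among the wound keratins Krt6a and Krt17 were higher in DTX and Krt16 was not. Krt6a went from 1056 CPM in PBS to 2375 CPM in DTX, a log2 ratio of 1.17 (1.13 to 1.20). Krt17 went from 4915 to 8714 CPM, a log2 ratio of 0.83. Krt16 had 5424 and 4870 CPM, a log2 ratio of -0.16. Krt6b went from 86.0 to 287 CPM, a log2 ratio of 1.73 (1.63 to 1.83), but 1 DTX cell held 368 of its 1115 UMIs, and when the cell with the most UMIs was left out in each library the ratio was 1.30, with 1.14 for Krt6a.

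Most keratins of the basal and suprabasal layers were lower in DTX by less than the fold. Krt14 had a log2 ratio of -0.41, Krt5 of -0.62 and Krt15 of -0.70. Krt10 had -0.67, Krt1 -0.50 and Krt77 -0.28. Krt79 was higher in DTX, with 2069 and 3879 CPM and a log2 ratio of 0.91. Krt25 (-1.64) and Krt78 (-1.001) rested on 2 and 23 DTX UMIs. Barcodes that the mitochondrial limit had left out, with at least 500 genes and over 1% keratin UMIs, were compared in the same way. Their log2 ratios were 0.96 for Krt6b, 0.76 for Krt6a, 0.56 for Krt17, 0.64 for Krt79, -1.13 for Krt10 and -0.32 for Krt14, each of the same sign as in the kept cells. Of the opposite sign were Krt16 (0.13), Krt25 (1.89, from 7 and 31 UMIs), Krt2 (1.85), Krt18 (0.25), Krt32 (-0.87), Krt7 (-0.51) and Krt42 (-0.001). With at most 2000 genes per cell, a limit named in the methods of the study, 201 epithelial-like cells of PBS and 12 of DTX remained, and Krt10 (1.12), Krt16 (1.51), Krt1 (0.29), Krt77 (0.19) and Krt79 (-0.83) changed sign.

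Since the libraries differed in their states, each state was compared by itself. Of 16 keratins counted in spinous-like cells, Krt17 and Krt6b were past the fold as higher in DTX (0.949% of all 7690 genes) and Krt79 as lower (5.57%). Of 16 in infundibulum-like cells, Krt6b was past it as higher (0.544% of 7167) and Krt1 and Krt18 as lower (2.23%). Of 12 in Col17a1 basal-like cells, 0 were higher (2.47% of 6327) and 5 lower (12.5%), namely Krt10, Krt32, Krt1, Krt77 and Krt79. Of 12 in Cxcl2 basal-like cells, 0 were higher (1.26% of 5857) and 3 lower (2.53%), namely Krt10, Krt1 and Krt77.

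Krt6a was higher in DTX in all 4 states. Its log2 ratios were 0.79 in Col17a1 basal-like, 0.82 in Cxcl2 basal-like, 0.64 in spinous-like and 0.86 in infundibulum-like cells. Without the top cell of each library they were 0.51, 0.78, 0.40 and 0.81, and 1 of the spinous-like DTX cells held 19.1% of the UMIs there. Krt17 had 0.41, 0.57, 1.12 and 0.27 in the same order. Both genes were above 0 in each state, and the spinous-like value of Krt17, from 1264 and 2749.9 CPM, stood apart. Krt16 had -0.87, 0.04, 0.06 and 0.09, and Krt14 had 0.32, -0.36, -0.14 and -0.12. Krt16 and Krt14 thus had no common direction, and the Col17a1 basal-like values rest on 16 DTX cells.

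The ratio of Krt6b within states depended on single cells. It was 1.80 in spinous-like cells, where 1 of the 12 DTX cells with a UMI held 368 of 628 UMIs, and 0.67 without the top cell of each library. In infundibulum-like cells it was 1.68, where 1 of 8 DTX cells held 219 of 378 UMIs, and 1.21 without the top cells. Leaving out the top cell takes a larger share from the smaller DTX group. Counting intervals do not cover this spread between cells.

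The keratins past the fold as lower in basal-like cells had between 0 and 7 DTX UMIs. In Col17a1 basal-like cells of DTX, Krt10 had 5 UMIs, Krt1 and Krt77 had 2 each, Krt79 had 1 and Krt32 had 0, against 357, 370, 236, 156 and 53 in PBS. The 53 PBS UMIs of Krt32 came from 49 of 426 cells, at 10.0 CPM. A floor of 3 UMIs in the 16 DTX cells is 12.8 CPM, so that no difference was detectable at this depth. In Cxcl2 basal-like cells, 111 of the 154 PBS UMIs of Krt77 came from 1 cell. For comparison, the log2 ratio of DTX to PBS in macrophage-like cells was -2.83 for Krt10, -2.73 for Krt1, -2.31 for Krt77 and -1.16 for Krt79. The part of free RNA in the basal-like ratios of these 4 genes was not tested.

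Without its granular-like cells, an alternative chosen after the data had been seen, the infundibulum-like state had log2 ratios of 0.83 for Krt6a, 0.74 for Krt6b, 0.03 for Krt17, -0.02 for Krt79, -1.499 for Krt10 and -1.64 for Krt1, so that Krt6b was no longer and Krt10 newly past the fold. In infundibulum-like cells Krt1 had 800 CPM in PBS and 386 CPM in DTX, a log2 ratio of -1.05, and 1 cell held 239 of its 503 DTX UMIs. Krt18 had 54 UMIs in 15 of the 505 PBS cells, 16 of them in 1 cell, and 0 in the 84 DTX cells. Against a floor of 3 UMIs in DTX this is at least 3.80-fold lower. That bound takes the PBS level as counted and does not cover the spread between cells. With so few cells carrying Krt18 in PBS, 0 in 84 cells cannot be read as a difference. In spinous-like cells Krt79 had 1158 UMIs in 133 PBS cells, 186 of them in 1 cell, and 29 in 11 DTX cells, 17 of them in 1 cell. These DTX counts are small, and the level is close to that of another class (26.0 CPM beside 11.8 CPM in macrophage-like cells).

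**Figure D3:**
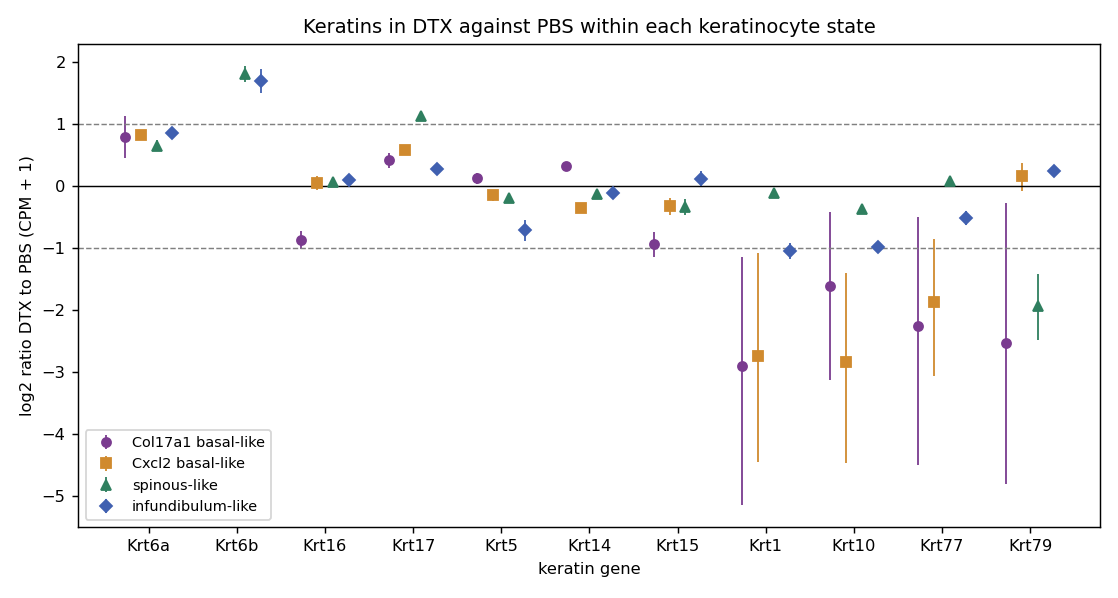
Log2 ratio of DTX to PBS (y axis) of the more abundant keratins (x axis) in the 4 named states, shown by symbol, with 1 CPM added, where bars are exact 95% intervals for counting error and dashed lines mark the fold used. Krt6a lay between 0.64 and 0.86 in all 4 states, whereas Krt10 and Krt1 lay far lower in basal-like cells, where each had between 2 and 5 DTX UMIs.

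The ratios were also computed with the mix of states held fixed. The levels of the 4 named states were weighted by their share of UMIs in PBS, a choice made after the data had been seen. Summed keratins then had a log2 ratio of 0.10. Krt6b had 1.76 in place of 1.73, Krt6a had 0.79 in place of 1.17 and Krt17 had 0.45 in place of 0.83. Krt79 had 0.21 in place of 0.91, Krt14 had 0.04 in place of -0.41, and Krt5 had -0.07 in place of -0.62. Krt10 had -0.46 and Krt15 had -0.49. With the mix held, Krt6b was the only keratin past the fold as higher, with the limit on single cells given above. Krt25 and Krt18, both with few UMIs, were past it as lower. The fixed mix also left out the cycling-like and unnamed clusters, which the ratios it replaced had included. Leaving out the unnamed clusters alone gave -1.47 in place of -0.36 for Krt18 and -2.24 in place of -1.64 for Krt25. Of the 12 DTX UMIs of Krt18, 9 were in the cluster led by Dcn. Finer clusters within a state were not held. Granular-like cells were 17.0% of infundibulum-like cells in PBS and 34.5% in DTX. Krt6b stood at 288 and 683 CPM in them, against 36.5 and 61.8 CPM in the rest of that state.

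**Figure D4:**
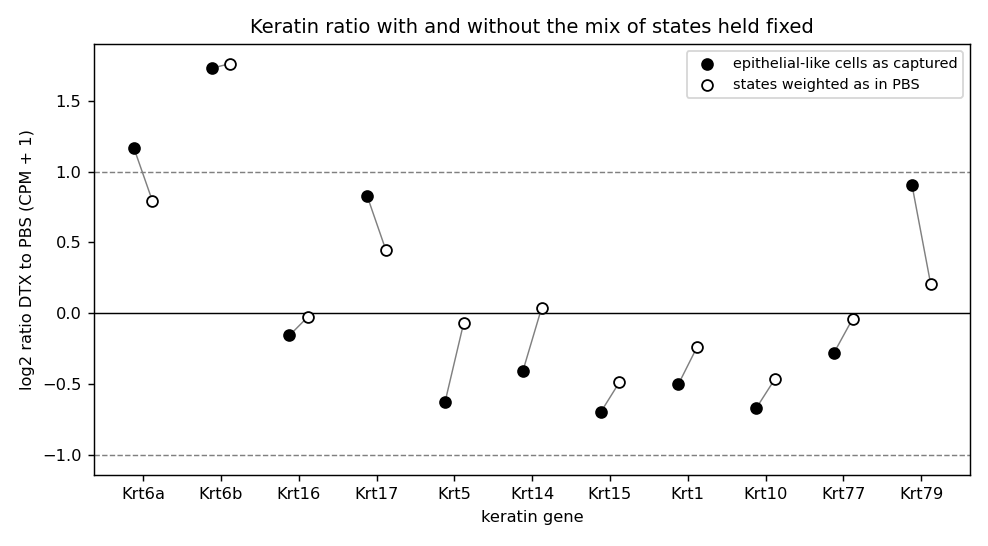
Log2 ratio of DTX to PBS (y axis, 1 CPM added) of the more abundant keratins in epithelial-like cells (x axis), with the mix of states each library had (filled) and with the mix held at that of PBS (open). Open points leave out the cycling-like and unnamed clusters. Krt79 moved from 0.91 to 0.21 and Krt14 from -0.41 to 0.04, while Krt6b moved little, from 1.73 to 1.76.

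Genes of the structures to which keratin filaments attach, and regulators of keratin genes, were set beside the keratins. Of 31 listed, 29 were counted and 0 were past the fold in either direction. Of all 10288 genes tested in epithelial-like cells, 2.67% were past it as higher and 2.07% as lower, so that 0 of 29 is near these shares. The 29 had a median log2 ratio of 0.03, with 16 above 0 and 13 below. Medians were -0.06 for 12 desmosome genes, 0.09 for 6 hemidesmosome genes, 0.09 for 3 other linkers and 0.08 for 8 regulators. The extremes, named after their values had been seen, were the desmosomal cadherin Dsc1 at 0.97 (14.9 and 30.1 CPM) and the hemidesmosome collagen Col17a1 at -0.89 (437 and 236 CPM). Pkp2 and Tchp had fewer UMIs than the minimum and were not counted.

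Cells of other classes carried low keratin counts beside similar low counts of other keratinocyte RNA. Over classes their summed keratin level was between 0.235% and 4.82% of that in epithelial-like cells of the same library. In macrophage-like cells it was 377 CPM in PBS (1.35% of the epithelial level) and 117 CPM in DTX (0.385%), a log2 ratio of -1.68. Among 10 keratinocyte genes other than keratins, the level in macrophage-like cells had a median of 1.25% of the epithelial level in PBS (1.03% to 3.81%) and 0.351% in DTX (0.261% to 6.86%), and the highest value in both was Dmkn. The keratin percent thus lay within the range of the other keratinocyte genes in both libraries, and both were lower in DTX, apart from Dmkn. The share of all cells outside the epithelial class with a Krt14 UMI, thinned to 2000 UMIs, was 12.5% in PBS and 4.44% in DTX, and unthinned 36.9% and 13.8%, with 456 and 416 shallower cells left out.

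**Figure D5:**
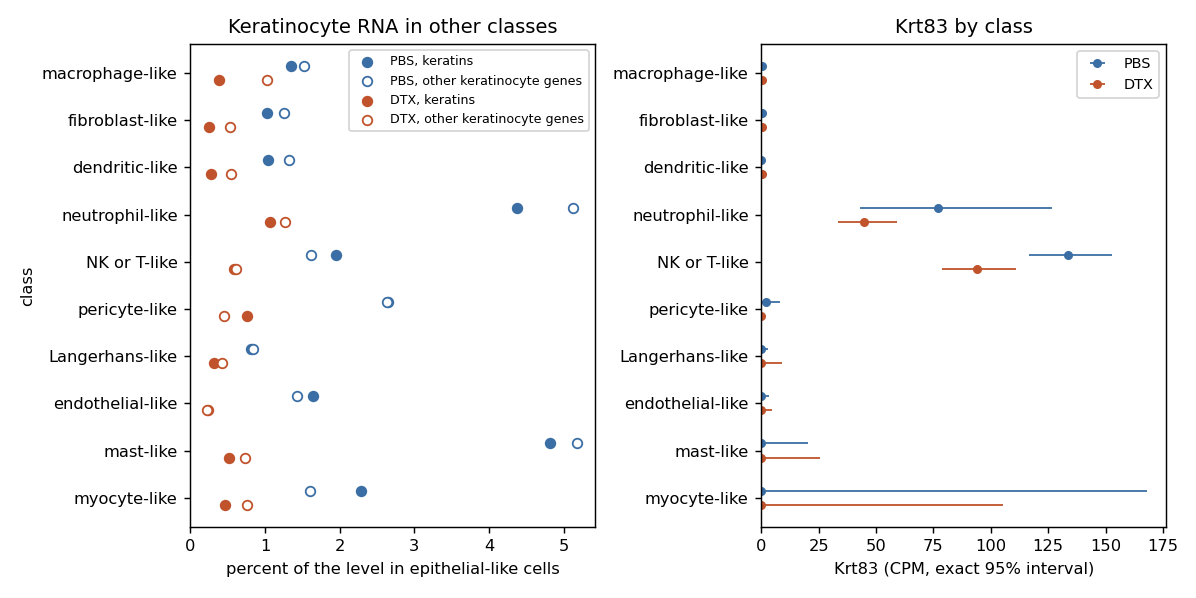
Left, level of summed keratins (filled) and of 10 other keratinocyte genes summed (open) in each class outside the epithelial one (y axis), as percent of the level in epithelial-like cells of the same library (x axis), and right, Krt83 in CPM (x axis) with exact 95% intervals. Keratins were lower in DTX than in PBS in each class, with 0.385% and 1.35% in macrophage-like cells, while Krt83 stood at 134 (PBS) and 93.8 CPM (DTX) in NK- or T-like cells. In macrophage-like cells of DTX, Dmkn alone gave 8444 of the 12949 UMIs behind the open point.

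A few cells with much keratin raised some of the smaller classes. In pericyte-like cells of PBS, 2 of 61 cells had over 0.5% keratin UMIs and held 80.9% of the keratin UMIs of the class, whose level was 738 CPM with and 147 CPM without them. In mast-like cells of PBS 1 of 33 cells held 74.8%, and in endothelial-like cells 2 of 73 held 48.9%. In macrophage-like cells such cells held 0.160% and 3.22%. This limit of 0.5% was chosen after the data had been seen.

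Krt83, a type II keratin of the hair shaft, did not follow the epithelial cells at all. Of its 458 UMIs, 2.62% were in epithelial-like cells. NK- or T-like cells held 218 in PBS, in 77 of 225 cells (134 CPM), and 134 in DTX, in 44 of 153 cells (93.8 CPM), against 0.351 and 0.515 CPM in epithelial-like cells. Within this class the cluster led by Gzma, Gzmc and Gzmb had 133 and 76.9 CPM, and the cluster led by Cd3g and Trdc had 139 and 202 CPM, so that neither library placed it in 1 of them alone. Thinned to 2000 UMIs, 22.4% of NK- or T-like cells of PBS and 14.5% of DTX had a Krt83 UMI, against 0.0679% and 0.0233% of macrophage-like cells, and before thinning 34.2% and 28.8%, against 0.0590% and 0.113%. At most 14 of the UMIs came from 1 cell. Neutrophil-like cells of DTX held 50 Krt83 UMIs in 27 of 457 cells (44.7 CPM). Those of PBS held 15 in 4 of 129 cells (76.8 CPM), 9 of them in 1 cell.

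Some further keratins had more UMIs in a class than the epithelial mixture of keratins would give. The expected number took the keratin UMIs of the class and the gene shares of the epithelial-like cells of its library, without the cells over 0.5% keratin UMIs. Krt80 in macrophage-like cells had 147 UMIs in PBS, 7.28 times the expected number (6.15 to 8.56), and 455 in DTX, 17.8 times (16.2 to 19.5), with at most 4 in 1 cell. In dendritic-like cells Krt80 had 5.72 and 19.6 times the expected number. Krt80 thus stood above it in both classes and both libraries, as did Krt10 in fibroblast-like cells, with 1.99 times in PBS and 4.43 times in DTX.

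In fibroblast-like cells Krt23 had 127 and 76 UMIs, 7.79 and 52.2 times the expected number, though 35 of the DTX UMIs came from 1 cell. Krt8 had 46 UMIs in 30 cells of PBS and 14 in 6 cells of DTX. Krt19 had 55 in 24 cells and 5 in 2, 4 of these 5 in 1 cell. Epithelial-like cells of PBS had 20 of Krt8 and 4 of Krt19, of which the cluster led by Dcn held 15 and 4. Those of DTX had 3 and 2, of which the cluster led by Dcn held 2 and 2, out of 3882554 UMIs in all, beside 9719094 in fibroblast-like cells. Against all epithelial-like cells, a higher Krt19 level in fibroblast-like cells was thus seen in PBS only. In both libraries all Krt19 UMIs of epithelial-like cells lay in the cluster led by Dcn, a fibroblast gene. The DTX side of this comparison rests on 2 such UMIs. These fibroblast-like counts are small, with 0.978% of PBS cells carrying Krt8 and 0.783% carrying Krt19.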

How the data were processed

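Per the labels and the submitters' processing notes, the authors aligned reads of both libraries to mm10 and counted UMIs per gene and barcode with Cell Ranger 6.1.1. The deposited values are raw UMI counts, whole numbers without normalization. Here barcodes with at least 500 genes and at most 6% UMIs of genes named mt- were kept. A cap of 2000 genes per cell, which the study describes, served only as an alternative. Doublets were scored with Scrublet (scanpy 1.11.5), which removed 382 cells (4.59%) of PBS. It called none in DTX, where the 8% of cells with the highest scores were removed (575). Cells were clustered in Seurat 5.3.0 (R 4.3.3, 2000 variable genes, 30 components, resolution 0.2 for classes and 0.3 for states) with all Krt rows left out. Seed 1 was used for Scrublet and for thinning. A class took the list with the most markers among the 10 leading genes of a cluster, then the list with the largest share raised. For classes at least 3 markers had to be raised 2-fold over the median cluster with 50 CPM added, in at least 10% of cells. For states at least 3 markers and 50% of a list had to be raised 1.5-fold with 10 CPM added, in at least 10% of cells. A state also needed fewer than 2 leading genes from any other class. This scoring rule was set after the data had been seen, and cells named in the study may fall elsewhere. A keratin was named with 50 or more UMIs over both libraries. Counts were summed per group and divided by all UMIs of the group (Python 3.11.15, numpy 2.4.6, scipy 1.17.1). Intervals are exact Poisson for levels and exact binomial (Clopper-Pearson) for shares. They cover counting error only, since cells of 1 library are not replicates. The log2 ratio and the exact intervals were tested on simulated counts, which held no spread between cells. The other steps were not tested in this way. The members and gene lists were chosen with earlier results of these data known. The text of the study gives the cell totals of the 2 conditions the other way round than the labels do. Groups were taken from the labels, and an exchange would turn the sign of each ratio of DTX to PBS.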

Additional observations from a re-analysis of the deposited data

Results flagged for a closer look

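Keratin UMIs were also found in barcodes outside the kept cells, which the main comparisons did not use. In barcodes with under 500 genes they were 0.306% of UMIs in PBS and 0.123% in DTX. In those with enough genes and over 6% mitochondrial UMIs they were 1.35% and 0.719%, and in putative doublets 0.907% and 0.197%. All 6 values lay above the share that 3 UMIs would give.

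The ratio of DTX to PBS pointed in opposite directions in different states for Krt77 and Krt79. For Krt77 the log2 ratio in spinous-like cells exceeded that in Col17a1 basal-like cells by 2.33 and that in Cxcl2 basal-like cells by 1.95. For Krt79 the log2 ratio in infundibulum-like cells exceeded that in spinous-like cells by 2.16 and that in Col17a1 basal-like cells by 2.77. With 1 library per condition the difference was not tested in any of these 4 pairs. The lower values rest on 1 to 29 DTX UMIs, and the Krt77 ratio in spinous-like cells was -0.06 without the top cell of each library. The Krt79 ratio in infundibulum-like cells was -0.02 without their granular-like cells.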

How the results depend on the processing

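No paired analysis was possible because each condition had 1 library and no result came from a test, and no replicate could be left out. The order of the libraries turned for the type I to type II ratio with at most 2000 genes per cell and for the infundibulum-like share at resolution 0.5. With putative doublets kept, keratins took 2.73% (PBS) and 2.88% (DTX) of epithelial UMIs, the type I to type II ratio of DTX was 2.13 and the summed log2 ratio 0.074. With at most 2000 genes per cell the percents were 2.48 and 3.17, the type ratios 1.89 and 2.04, basal-like cells 68.7% and 66.7%, spinous-like cells 0% in both, infundibulum-like cells of PBS 31.3%, the summed log2 ratio 0.35 in epithelial-like and -1.51 in macrophage-like cells, with 5 keratins past the fold as higher (Krt6b, Krt6a, Krt10, Krt16, Krt80) and 1 as lower (Krt5), from 201 and 12 cells. Adding 10 CPM gave -1.60 in macrophage-like cells and 0 keratins lower. A minimum of 10 UMIs gave 4 higher, and of 200 UMIs 1 lower. At resolution 0.5 spinous-like cells were 21.1% and 17.9% and infundibulum-like cells 5.95% and 5.11%. Thinning to 1000 UMIs gave Krt14 in 7.89% and 2.44% of other cells. Chosen after seeing the data, a fixed mix of states gave a summed ratio of 0.10 and 1 keratin higher, and leaving out the unnamed clusters 0.21 and 4. The share of all genes past the fold is given for the main setting only. The counts of keratins past it at these other settings thus have no such share beside them and are not read as results. With at most 2000 genes 8 of 13 keratins kept their sign, with the fixed mix 15 of 21 (Krt14 went from -0.41 to 0.04), without the top cell 18 of 21, and without the unnamed clusters 20 of 21. The causes were not tested.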

Other observations

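The epithelial-like cluster led by Dcn, which stayed unnamed, had 51 cells in PBS and 14 in DTX. Krt10 stood there at 2265 CPM in PBS and had 3 UMIs in DTX. Krt1 stood at 711 CPM and Krt77 at 1312 CPM in PBS, and both had 0 UMIs in DTX, which against a floor of 3 UMIs is at least 54.1-fold and at least 99.8-fold lower. The PBS UMIs of Krt1 came from 12 of the 51 cells, and those of Krt77 from 18, with 274 of 1029 in 1 cell. These bounds cover the counting error of the DTX counts only, and not this spread between cells.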
